A study of Mus musculus with 6 samples.

Results

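The genes described here are the translation initiation and elongation factors of Comma-Dβ cells, with the subunits of the nascent polypeptide-associated complex (NAC). They were the rows of the deposited count table whose symbol begins with Eif1 to Eif6 or with Eef1 or Eef2, the eIF2 kinase genes left out, and Btf3, Btf3l4 and Naca. The rule matched 68 of the 25655 genes in the table. Comma-Dβ is a cell line of mouse mammary epithelium. Its transcriptome was measured by RNA sequencing in 3 siID4 samples, which received the siGENOME pool against mouse Id4, and in 3 NT samples, which received the ON-TARGETplus non-targeting pool. Both arms were at passage 29, were transfected at 20 nM with Dharmafect-4 and were harvested at 48 hr, in medium with serum, insulin and EGF. The pools belong to different product lines, so loss of Id4 and any other difference between the pools cannot be told apart in this design. The labels call the samples biological replicates of a single cell line.

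An mRNA is translated in steps that each have their own factors. The eIF4 proteins bind the cap and unwind the leader, eIF2 brings the initiator tRNA, eIF3 holds the complex on the small ribosomal subunit, and eIF1, eIF1A, eIF5 and eIF5B act at the start codon. The eEF1 proteins then deliver each aminoacyl-tRNA and eEF2 moves the ribosome along. NAC, a pair of an alpha subunit encoded by Naca and a beta subunit encoded by Btf3, sits at the ribosome's exit tunnel and contacts the chain as it emerges. Mammary epithelium depends on this machinery for milk protein synthesis, and Eif3e was first known in mouse mammary tumours as the integration site Int6.

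Library totals ran from 21701067 to 23062482 counts in siID4 and from 19216688 to 23095620 counts in NT samples. Id4, the siRNA target, had 59.4, 62.2 and 48.2 CPM in siID4 cells, against 135, 114 and 118 CPM in NT cells, where CPM is the count relative to the TMM-scaled library total. Its mRNA was thus lowered to 0.463 of the NT mean (log2 fold change -1.11, SE 0.10, edgeR adjusted p = 8.65e-04, and 0.0113 in edgeR blocked by replicate number). All 8 mammary epithelial markers looked up were expressed, among them Krt5 at a mean of 727 CPM in siID4 and 822 CPM in NT cells and Cdh1 at 257 and 218 CPM. Of these 8, Cdh1 and Trp63 rose and Epcam fell in edgeR, and a fit blocked by replicate number called 2 higher and 5 lower. Of all genes tested, that blocked fit called 17.9% higher and 18.3% lower. The 8 fibroblast markers summed to between 2120 and 2342 CPM in siID4 libraries and between 1594 and 1852 CPM in NT libraries, and 3 of them rose and 1 fell. Over all genes tested, 4.62% rose and 4.93% fell. With the block, 4 of the fibroblast markers were called higher and 2 lower. Col1a2 rose, averaging 1420 CPM in siID4 and 1074 CPM in NT cells. So did Pdgfrb (327 and 244 CPM) and Cxcl12 (401 and 250 CPM). Pdgfra fell, averaging 36.3 CPM in siID4 and 56.0 CPM in NT cells. Dcn (49.1 and 62.6 CPM) and Fbln1 (25.4 and 27.6 CPM) were also lower but did not pass without the block. Dcn passed with the block (adjusted p = 1.13e-06). From few counts, Thy1 averaged 0.792 and 0.372 CPM and Lum 0.0599 and 0.0335 CPM. None of the 8 was at 0 in all libraries. The endothelial list summed to at most 3.28 CPM in siID4 and 1.86 CPM in NT libraries, the leukocyte list to 3.77 and 3.11 CPM and the adipocyte list to 0.408 and 0.220 CPM, with Plin1 at 0 throughout. The part of the fibroblast-type genes in the results below was not tested.

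Btf3 stood apart from the rest of the translation factors. It fell in siID4 cells while all other members tested differed from NT by at most 0.31 on the log2 scale. Of the 60 members that passed the filter on low counts, 2 fell and 0 rose at an adjusted p under 0.05 in edgeR's quasi-likelihood test. The same call was made for 4.93% of the 13941 genes tested in the downward and 4.62% in the upward direction, so a share of 3.33% of members downward is close to the share over all genes. At an unadjusted p under 0.05, 20 members were lower and 0 were higher, against 12.7% and 12.9% of all genes. DESeq2 called 7 lower and 0 higher (5.72% and 5.0% of all genes), and limma-voom 3 lower and 0 higher (4.86% and 4.7%). In edgeR with library totals 1 was lower and 0 were higher (4.05% and 5.95%), and with no filter on low counts 4 were lower and 0 higher (3.21% and 3.22%).

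Small differences in the same direction were common. The log2 fold change was below 0 in 47 of the 60 members, against 49.8% of all genes tested, and its median was -0.08, against 0.00 over all genes tested. In 24 members every siID4 library lay below every NT library, or 40.0%, where the share over all genes was 15.4%. No member had every siID4 library above every NT library, an order found in 15.5% of all genes. Within all 3 same-numbered pairs, 34 members were lower in siID4 and 6 higher, against 29.6% and 29.9% of all genes. Level moved with this result. Among the 2376 genes averaging 100 CPM or more the median was -0.04 and 27.3% had lower, non-overlapping siID4 libraries, whereas the 38 members at that level had a median of -0.10 and a share of 50.0%. The edgeR test without the block called 1 of those 38 lower, or 2.63%, against 10.9% of all genes at that level. The part of expression level in the members' shift was not tested.

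Libraries with the same replicate number deviated together, and a fit with that number as a block called far more genes. With the block, 28 members fell and 3 rose, against 18.3% of all genes downward and 17.9% upward. At that level of 100 CPM or more the block called 22 of 38 members lower, or 57.9%, against 37.5% of all genes at that level. Both members called without the block were among those called with it. The adjusted p of the blocked fit did not follow the size of the difference. For Id4 it was 0.0113 at a log2 fold change of -1.11, and for Eif4g1 6.00e-06 at -0.17. The 3 members that rose in this fit, and under none of the other 13 alternatives, were Btf3l4, Eif4g3 and Eif3g.

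**Figure D1:**
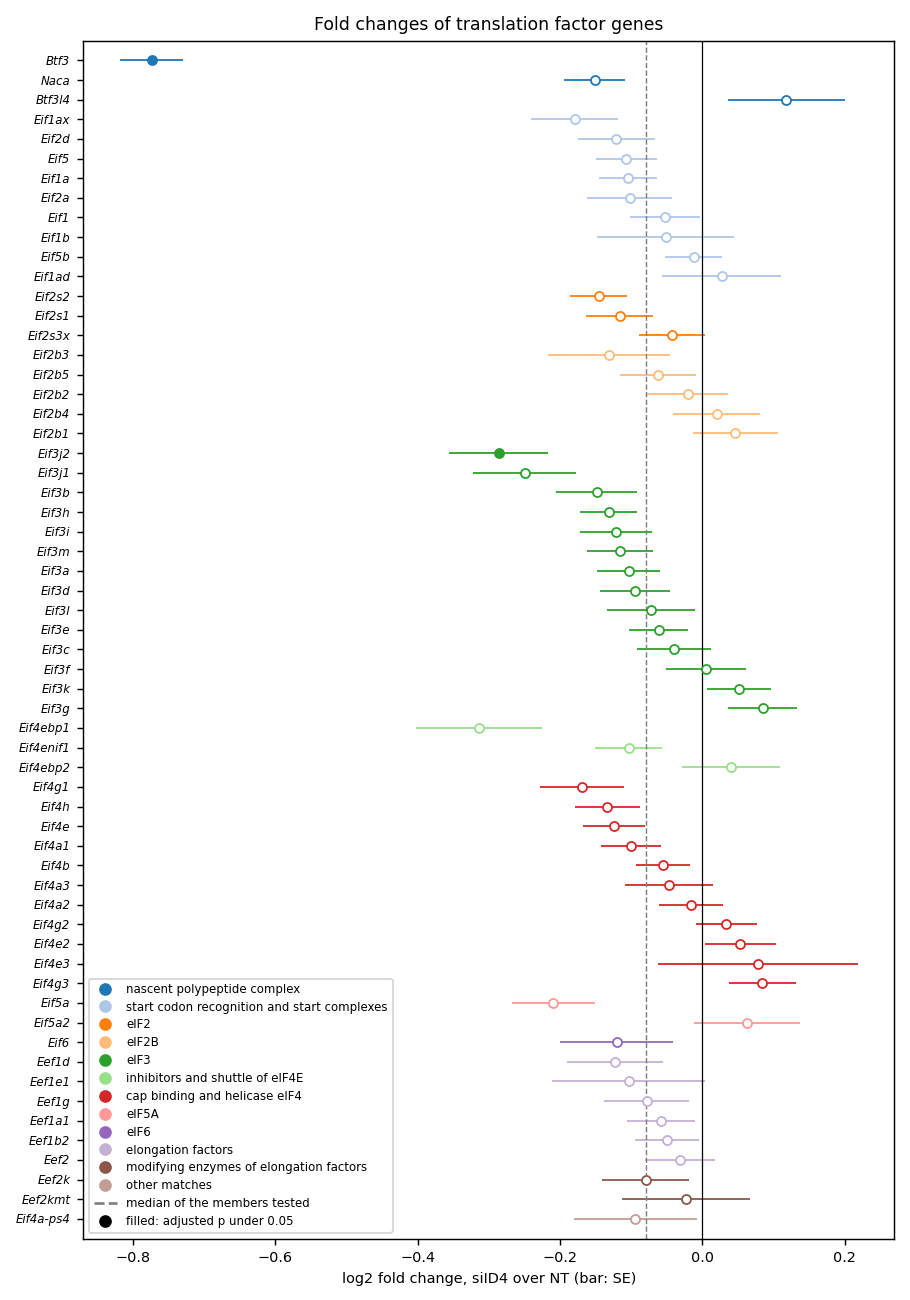
Log2 fold change of siID4 over NT for each of the 60 members tested (points, with SE as bars), grouped and coloured by role. Filled points passed at an adjusted p under 0.05, the dashed line is the members' median of -0.08, and Btf3 lies at -0.77, away from the other 59, which lie between -0.31 and 0.12.

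The mRNA for the beta subunit of NAC fell, while that for its alpha subunit was slightly lower and did not pass. Btf3 (ENSMUSG00000021660) lies on the minus strand at chr13:98309896-98317006 of GRCm38 and is protein-coding. It had 214, 199.7 and 205 CPM in siID4 libraries, against 344, 356 and 359 CPM in NT libraries. The groups were far apart and each was tight, with means of 206 ± 7.24 CPM in siID4 and 353 ± 7.94 CPM in NT cells (SD, n = 3 each, exact two-sided permutation p = 0.1, the smallest this design allows). The siID4 mean was 0.585 of the NT mean, with a log2 value of -0.77 in edgeR's fit (SE 0.04, adjusted p = 6.93e-05). The 3 same-numbered pairs gave log2 differences of -0.68, -0.83 and -0.81. Leaving out each library in turn kept the call every time, with log2 fold changes between -0.80 and -0.75. With Btf3 itself counted, 5 of the 13941 genes had an adjusted p that small or smaller. With it counted again, 117 genes had a log2 fold change as low or lower, and 6 of them averaged 100 CPM or more.

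Naca (ENSMUSG00000061315, plus strand, chr10:128035575-128048637) had 434, 425 and 449.7 CPM in siID4 libraries, against 477, 498 and 478 CPM in NT libraries. Its groups did not overlap, but the log2 fold change of -0.15 (SE 0.04) missed the threshold (adjusted p = 0.0563), and it passed with the block (adjusted p = 5.29e-05) and with DESeq2 (0.0370). Btf3l4, a close relative of Btf3 (minus strand, chr4:108814295-108833614), had 70.4, 64.3 and 63.5 CPM in siID4 libraries, against 67.0, 61.9 and 53.9 CPM in NT libraries. Those groups overlapped, and the difference of 0.12 in log2 CPM (SE 0.08) had an adjusted p of 0.419, or 0.0223 with the block.

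A ratio within a library does not depend on how libraries are scaled. Levels corrected for transcript length and library total (TPM) put the NAC subunits near parity in NT cells and not in siID4 cells. The ratio of Btf3 to Naca was 0.688, 0.655 and 0.636 in siID4 libraries, against 1.01, 0.996 and 1.05 in NT libraries. Adding Btf3l4 to Btf3 gave 0.831, 0.788 and 0.761 per Naca in siID4 libraries and 1.13, 1.11 and 1.146 in NT libraries. Both ratios were lower in every siID4 library than in any NT library. Btf3l4 amounted to 0.203 ± 0.00623 of the Btf3 level in siID4 and 0.110 ± 0.0141 in NT cells (SD, n = 3 each). The counts of Btf3 and Naca were not whole numbers in any library, so part of their reads was divided between similar loci by estimate, while those of Btf3l4 were whole in all 6.

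**Figure D2:**
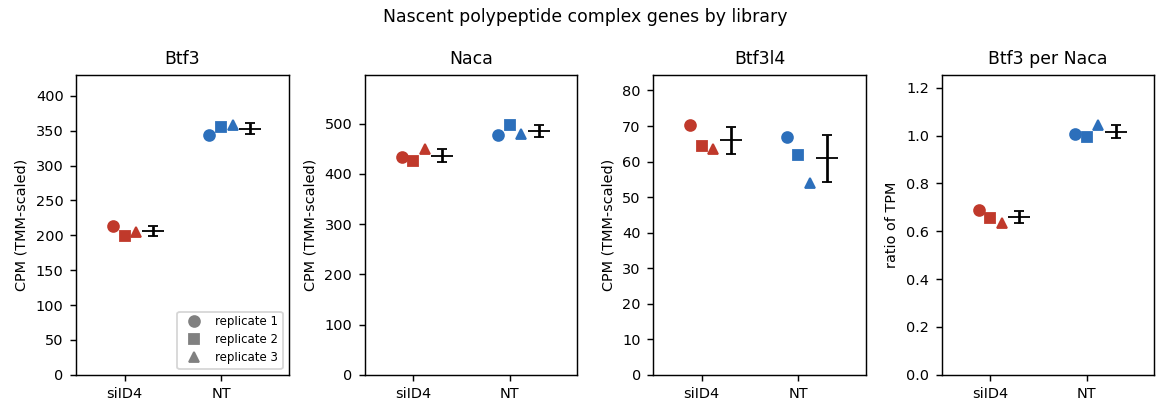
CPM of Btf3, Naca and Btf3l4 and the ratio of Btf3 to Naca in TPM, by library, with siID4 left of NT, the mean and SD beside each group and symbols for replicate numbers. Btf3 lies near 206 CPM in siID4 and 353 CPM in NT cells, and the ratio near 0.660 and 1.02.

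ID proteins lack a DNA-binding region and hold back the E proteins, which bind the E-box CANNTG. The sequences before the start sites of the NAC genes are shown because these subunits belong to a single complex and differed in their response. The 250 bases before a RefSeq start site on GRCm38.p6 were searched for CANNTG, a motif that reads the same on both strands, and it is set in capitals. Btf3 has annotated start sites at 98317006 and 98316967, and the window of the outer start is given. That start is also the end of the gene coordinates given above. The RefSeq starts of Naca (128035346) and Btf3l4 (108834302) instead lie upstream of the GENCODE gene coordinates given above. Their windows therefore do not adjoin the genes as described there.
Btf3, chr13:98317007-98317256, minus strand: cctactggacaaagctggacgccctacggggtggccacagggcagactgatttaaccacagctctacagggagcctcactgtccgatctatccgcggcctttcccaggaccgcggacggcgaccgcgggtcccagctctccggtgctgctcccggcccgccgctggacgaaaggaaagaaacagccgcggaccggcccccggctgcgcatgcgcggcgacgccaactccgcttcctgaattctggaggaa
Naca, chr10:128035096-128035345, plus strand: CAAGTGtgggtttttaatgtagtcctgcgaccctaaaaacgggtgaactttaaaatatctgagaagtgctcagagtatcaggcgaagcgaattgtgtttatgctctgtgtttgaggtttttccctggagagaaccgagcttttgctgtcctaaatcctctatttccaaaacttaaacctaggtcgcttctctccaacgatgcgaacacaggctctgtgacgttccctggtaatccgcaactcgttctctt
Btf3l4, chr4:108834303-108834552, minus strand: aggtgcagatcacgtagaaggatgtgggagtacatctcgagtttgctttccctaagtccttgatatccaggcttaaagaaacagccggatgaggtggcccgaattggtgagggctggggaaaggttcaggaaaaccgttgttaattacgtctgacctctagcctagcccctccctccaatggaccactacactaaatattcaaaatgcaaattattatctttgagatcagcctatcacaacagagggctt
Neither window of Btf3 held CANNTG, nor did that of Btf3l4, and Naca held 1 copy, CAAGTG, at the far end. CANNTG stood in 66.2% of all 32851 promoters in the table and in 29 of 62, or 46.8%, of those of members tested. All promoters include those of genes not tested here. A missing match says only that these letters are not in this window.

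For the groups that follow, the shares over all genes were 4.93% lower and 4.62% higher in edgeR, and 18.3% and 17.9% with the block. At 100 CPM or more, 10.9% were lower in edgeR and 37.5% with the block. Among the factors that act at the start codon, 0 of 9 passed edgeR's test, with log2 fold changes from -0.18 to 0.03 (0 higher and 5 lower with the block). Eif1ax, the X-linked gene of eIF1A, which steers scanning and start site choice, had 137, 141 and 152 CPM in siID4 libraries, against 157, 156 and 174 CPM in NT libraries. Its groups did not overlap (log2 fold change -0.18, SE 0.06, adjusted p = 0.1003, and 1.44e-05 with the block). The log2 fold changes of its relative Eif1a and of Eif5, whose product makes eIF2 hydrolyse GTP, were -0.10 and -0.11, both lower with the block (adjusted p = 0.00621 and 0.00159). Per length, Eif1 was the most abundant of this group, at 534 ± 27.8 TPM in siID4 and 535 ± 11.9 TPM in NT cells (SD, n = 3 each), with a log2 fold change of -0.05 and SE 0.05. Eif5b, the GTPase that joins the subunits, was at -0.01.

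The 3 genes of eIF2, which carries the initiator tRNA, had log2 fold changes below 0, and none passed in edgeR with TMM scaling and no block. Eif2s2, the beta subunit (minus strand, chr2:154871410-154892935), came nearest. It had 233, 233 and 240.1 CPM in siID4 libraries, against 261, 257 and 263 CPM in NT libraries (log2 fold change -0.15, SE 0.04, adjusted p = 0.0514). Every siID4 library was below every NT library, and the gene passed with DESeq2 (0.0412), limma-voom (0.0492), edgeR with DESeq2's size factors (0.0497) and the block (7.18e-05). Eif2s1, the alpha subunit that stress kinases phosphorylate, was at -0.12 on the log2 scale (adjusted p = 0.162, and 0.00208 with the block), also without overlap between the groups. Eif2s3x, the gamma subunit, was at -0.04 (0.624). In TPM, Eif2s3x and Eif2s2 were more abundant than Eif2s1 in every library. Eif2s3x stood at 2.65 ± 0.0752 times Eif2s1 in siID4 and 2.52 ± 0.0607 in NT cells, and Eif2s2 at 2.15 ± 0.0553 and 2.19 ± 0.0672.

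The 5 genes of eIF2B, which recharges eIF2 with GTP, had log2 fold changes from -0.13 (Eif2b3) to 0.05 (Eif2b1) and 0 passed in edgeR with or without the block. Their levels were below those of Eif2s2 and Eif2s3x. Eif2b2 was the highest at 85.5 ± 2.28 TPM in siID4 and 83.8 ± 2.38 TPM in NT cells, and Eif2b3 the lowest at 35.8 ± 3.13 and 37.9 ± 2.08 TPM (SD, n = 3 each).

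Of the 14 genes of eIF3, the scaffold of the initiation complex, Eif3j2 fell and the others did not pass. It had 41.3, 44.3 and 45.9 CPM in siID4 libraries, against 49.7, 54.1 and 56.4 CPM in NT libraries (log2 fold change -0.29, SE 0.07, adjusted p = 0.0343). The groups did not overlap, but of the 6 fits without a library the gene passed in 1, without NT replicate 1 (0.0197). The others gave 0.0525 to 0.132, and it missed the threshold with library totals (0.0515). Its near-identical copy Eif3j1 had 42.0, 43.1 and 46.8 CPM in siID4 libraries, against 51.4, 49.1 and 56.3 CPM in NT libraries (log2 fold change -0.25, SE 0.07, adjusted p = 0.0616, with 8.36e-05 in the blocked fit and 0.0418 in DESeq2). These genes encode the loosely bound j subunit and share reads, and their counts were not whole in any library, so the split between them is uncertain. Their sum, which does not depend on the split between the copies, was 87.8 ± 4.71 CPM in siID4 and 106 ± 6.18 CPM in NT cells (SD, n = 3 each), or 0.831 of the NT mean, again without overlap.

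The other 12 subunits lay between -0.15 and 0.08 on the log2 scale. Eif3h had 365, 353 and 352 CPM in siID4 libraries, against 396, 387 and 389.8 CPM in NT libraries (log2 fold change -0.13, SE 0.04, adjusted p = 0.0698, and 1.39e-04 with the block). Its siID4 libraries were all lower by a small margin. Eif3b, an RNA-binding scaffold subunit, was at -0.15 (SE 0.06, adjusted p = 0.135, and 4.11e-05 with the block). Eif3e, the Int6 gene, was at -0.06 (SE 0.04, adjusted p = 0.402). Eif3g and Eif3k had positive values, 0.08 and 0.05. With the block, 9 eIF3 genes were lower and Eif3g was higher (adjusted p = 0.0416). The block called 18.3% of all genes lower and 17.9% higher, and 37.5% lower of those averaging 100 CPM or more.

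Transcript levels of the eIF3 subunits spread widely. Eif3h led at 551 ± 13.4 TPM in siID4 and 583 ± 5.51 TPM in NT cells, while Eif3f was at 101 ± 0.678 and 96.8 ± 6.56 TPM and Eif3j1 at 16.4 ± 0.805 and 18.9 ± 1.23 TPM (SD, n = 3 each). The highest and lowest of the 14, averaged over all libraries, differed 32.1-fold. The lowest was Eif3j1, whose level rests on the uncertain split with Eif3j2. Outside these copies Eif3f was the lowest, at a mean of 98.7 TPM over all libraries, against 567 TPM for Eif3h.

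**Figure D3:**
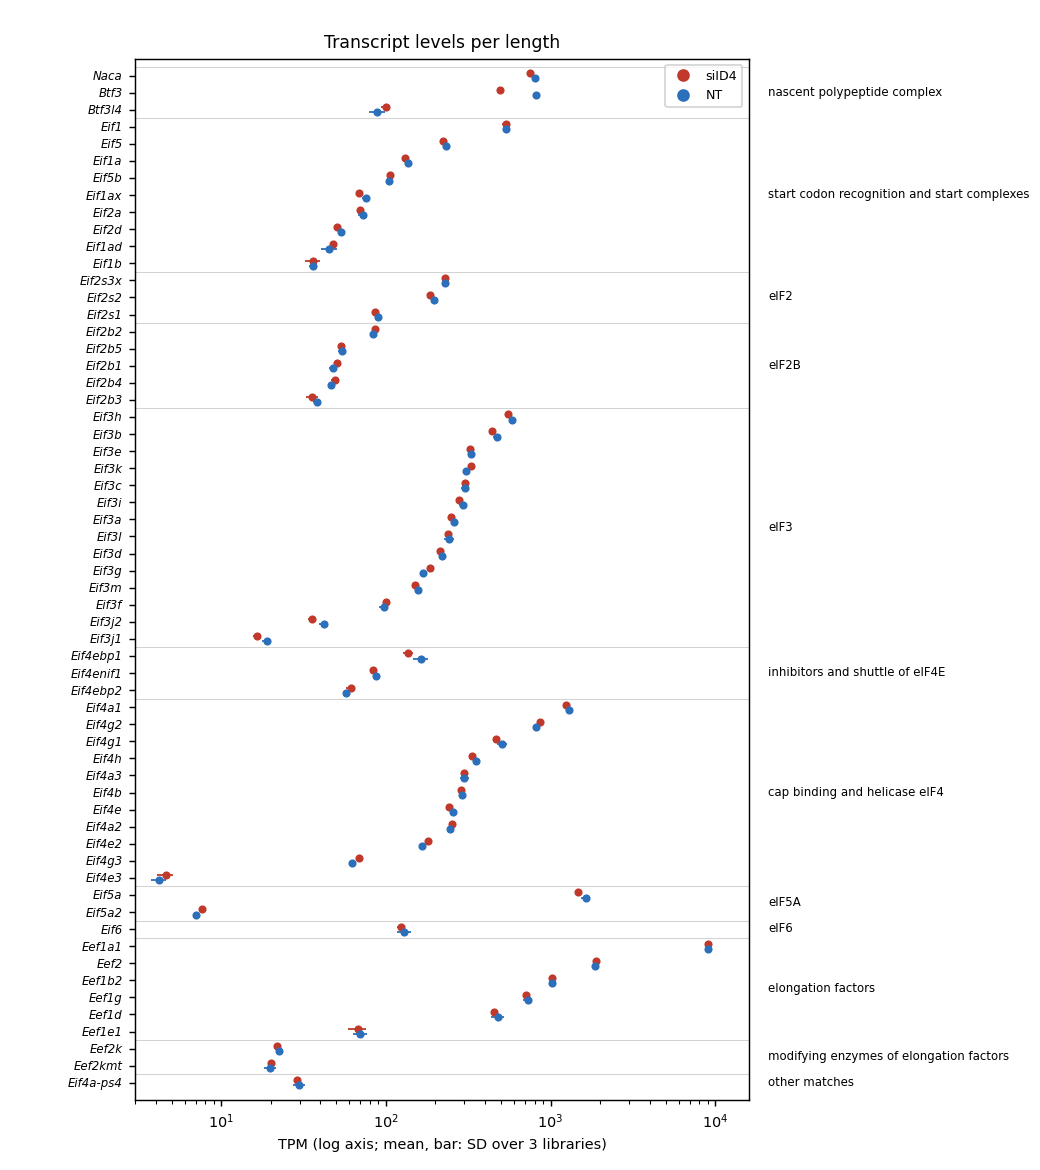
Level of each member tested in TPM on a log axis, as mean and SD over 3 libraries, with siID4 in red above NT in blue, grouped by role. Eef1a1 is highest at 8985 TPM in siID4 and 9044 TPM in NT cells and Eif4e3 lowest at 4.59 and 4.19 TPM, and Btf3, at 492 and 813 TPM, has the widest gap between the colours.

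None of the 11 genes tested for cap binding and unwinding passed in edgeR. With the block, 4 of them fell and 1 rose. Eif4g1, the scaffold that joins the cap-binding protein to the helicase, had 1071, 1049 and 1149 CPM in siID4 libraries, against 1163, 1193 and 1320 CPM in NT libraries (log2 fold change -0.17, SE 0.06, adjusted p = 0.108, and 6.00e-06 with the block). Eif4h, a cofactor of the helicase, had 412, 411 and 430.3 CPM in siID4 libraries, against 450.2, 445 and 480.0 CPM in NT libraries (-0.13, SE 0.05, adjusted p = 0.103, and 1.08e-04 with the block). Eif4e, which binds the cap, was at -0.12 and the helicase gene Eif4a1 at -0.10 (adjusted p = 0.113 and 0.173, and 0.00147 and 0.00303 with the block). In these 4 genes the siID4 libraries were all below the NT libraries, with log2 fold changes between -0.17 and -0.10. Eif4b, at -0.06, had the same order. That made 5 of the 11, against 15.4% of all genes and 27.3% of those averaging 100 CPM or more.

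Several relatives of these genes had log2 fold changes above 0. Eif4g2, which lacks the part that binds eIF4E, was at 0.03, Eif4g3 at 0.08 (adjusted p = 0.300, and 0.0228 with the block) and the weak cap binder Eif4e2 at 0.05. The TPM of Eif4g2 was 1.84 ± 0.0337 times that of Eif4g1 in siID4 and 1.598 ± 0.0863 times in NT cells (SD, n = 3 each), with all siID4 libraries above all NT libraries. Eif4a1 at 1245 ± 32.1 TPM in siID4 and 1290 ± 3.43 TPM in NT cells was more abundant in every library than its relative Eif4a2, at 250.4 ± 9.91 and 245 ± 3.71 TPM.

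Genes of the cap complex are known targets of MYC, which binds the E-box CACGTG, and stretches that hold it are shown for this reason. CACGTG, which reads the same on both strands and is itself a case of CANNTG, stood in 13 of 62 promoters of members tested, or 21.0%, and in 6.02% of all promoters. The share over all promoters includes genes not tested here. CACGTG was found in 11 members, some of them with several annotated start sites, and some windows of Eif5a share a copy. Both copies in Eif4e precede its start at 138527268, and the window of its other start, 138526191, held none. That start at 138527268 and the start of Eif4g1, 20672727, lie inside the genes' GENCODE coordinates, which begin at 138526179 and 20668313. Stretches of 30 bases on GRCm38.p6 follow for the cap complex genes with a match and for the elongation factor gene Eef2, with CACGTG in capitals.
Eif4e, chr3:138527028-138527057, plus strand: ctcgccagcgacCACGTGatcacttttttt
Eif4e, chr3:138527192-138527221, plus strand: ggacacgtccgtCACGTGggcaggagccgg
Eif4g1, chr16:20672661-20672690, plus strand: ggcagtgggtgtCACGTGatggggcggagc
Eif4a1, chr11:69672595-69672624, minus strand: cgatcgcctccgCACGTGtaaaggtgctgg
Eif4h, chr5:134639488-134639517, minus strand: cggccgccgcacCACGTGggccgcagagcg
Eef2, chr10:81176576-81176605, plus strand: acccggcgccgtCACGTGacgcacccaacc
A match is a description of the sequence. Log2 fold changes of the 11 members with it ran from -0.21 (Eif5a) to 0.06 (Eif5a2). The genes shown all had values below 0, as did 47 of the 60 members tested. Of the members with a match that are not shown, Eif5a2, Eif3k (0.05) and Eif3f (0.0055) had values above 0. A link between the motif and the fold change was not tested.

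Eif4ebp1 (plus strand, chr8:27260329-27276674) encodes 4E-BP1, which blocks eIF4E until mTORC1 phosphorylates it. It had 67.6, 64.0 and 74.9 CPM in siID4 libraries, against 85.4, 76.0 and 95.2 CPM in NT libraries. The groups did not overlap but each was wide (log2 fold change -0.31, SE 0.09, adjusted p = 0.0573). It passed with the block (1.48e-08), with DESeq2 (0.0175) and when low counts were left in (0.0440), and in the fits without siID4 replicate 3 (0.0458) or NT replicate 2 (0.0465). After Btf3 this was the largest log2 fold change in size among the members tested. Its relative Eif4ebp2 was at 0.04 (SE 0.07, adjusted p = 0.778). The ratio of Eif4ebp1 to Eif4ebp2 in TPM was 2.29, 2.15 and 2.23 in siID4 libraries, against 2.81, 2.65 and 3.04 in NT libraries, without overlap. Eif4enif1, which carries eIF4E into the nucleus, was at -0.10 (adjusted p = 0.204, and 0.0165 with the block).

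Eif5a (minus strand, chr11:69916714-69921958), the hypusine-bearing factor that helps the ribosome through stalling sequences, had 857, 842 and 925 CPM in siID4 libraries, against 955, 997 and 1083 CPM in NT libraries. Every siID4 library was lower (log2 fold change -0.21, SE 0.06, adjusted p = 0.0549). It passed with the block (1.42e-07) and with DESeq2 (0.0207), and in edgeR when low counts were left in (0.0285) or NT replicate 1 was left out (0.0352). Its relative Eif5a2 was at 0.06 (SE 0.07) and amounted to 0.00520 of the Eif5a level in siID4 and 0.00431 in NT cells, in TPM. Eif6, which keeps ribosomal subunits apart, was at -0.12 on the log2 scale (SE 0.08, adjusted p = 0.383, and 0.00672 with the block).

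**Figure D4:**
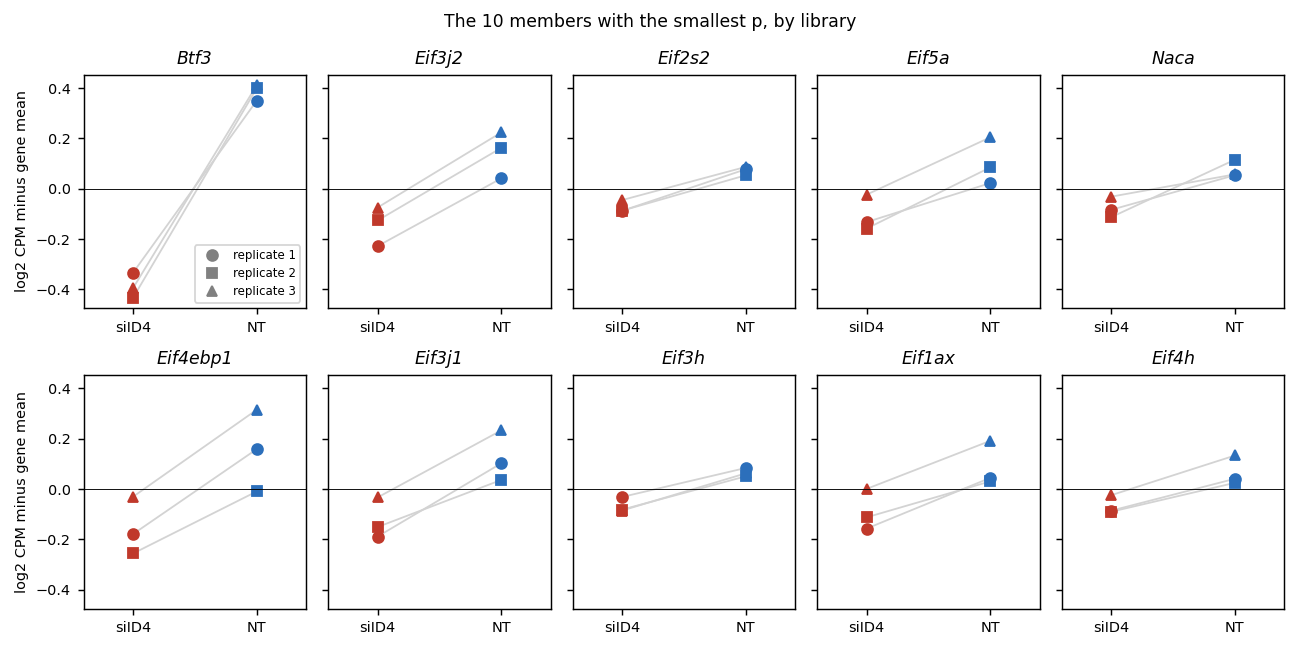
Log2 CPM of the 10 members with the smallest p, as the deviation from each gene's mean over 6 libraries, with siID4 left of NT and lines joining libraries of the same replicate number. Every line slopes the same way, and the slope is steepest for Btf3.

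Eef1a1 and Eef2 were the most abundant members in TPM. None of the 6 genes tested in the elongation factor group, which was formed by symbol and includes Eef1e1, passed in edgeR. Eef1a1, which delivers aminoacyl-tRNA, had 7906, 7968 and 8468 CPM in siID4 libraries, against 8179, 8557 and 8615 CPM in NT libraries, with overlap (log2 fold change -0.06, SE 0.05, adjusted p = 0.493). Eef2, the translocase, had 3023, 2999 and 3085 CPM in siID4 libraries, against 3014, 3005 and 3291 CPM in NT libraries (-0.03, SE 0.05, adjusted p = 0.741). The ratio of Eef2 to Eef1a1 was 0.211 ± 0.00519 in siID4 and 0.207 ± 0.00873 in NT cells, in TPM. The nucleotide exchange subunits Eef1b2, Eef1d and Eef1g were at -0.05, -0.12 and -0.08, and Eef1d and Eef1g were lower with the block (adjusted p = 0.00137 and 0.0193). Eef2k, the kinase that inhibits eEF2, was at -0.08 (adjusted p = 0.464), and Eef2kmt, a methyltransferase of eEF2, at -0.02.

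All 68 genes together took 2.57%, 2.58% and 2.69% of counts in siID4 libraries, against 2.63%, 2.71% and 2.78% in NT libraries. These ranges overlap. Eef1a1 and Eef2 alone made up 1.13% ± 0.0333 of counts in siID4 and 1.14% ± 0.0343 in NT cells (SD, n = 3 each).

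The 8 members that did not pass the filter were Eef1a2, Eif4e1b, Eif2c5, Eif4ebp3, Eif5al3-ps, Eif1-ps1, Eif3s6-ps1 and Eif3s6-ps2. Eef1a2, the eEF1A form of muscle and nerve, Eif4e1b and Eif2c5, which is annotated as a lincRNA, had 0 counts in all 6 libraries. Such a 0 allows at most 0.130 to 0.156 CPM per library (3 counts, counting error only). Eif4ebp3 and the 4 pseudogenes had at most 8 counts in any library. A further pseudogene row, Eif4a-ps4, was tested and lay at -0.09 on the log2 scale (adjusted p = 0.549), from counts that were not whole in any library.

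Beyond the members, the poly(A)-binding proteins, which loop the mRNA by contact with eIF4G, held the largest fall among the called genes of 9 lists of the wider pathway. Of 6 genes, 2 fell and 0 rose in edgeR (3 lower and 1 higher with the block), with a median of -0.07. For this and the lists below, the shares over all genes were 4.93% lower and 4.62% higher in edgeR, and 18.3% and 17.9% with the block. Pabpc1 had 1328, 1394 and 1450 CPM in siID4 libraries, against 1724, 1863 and 2009 CPM in NT libraries (log2 fold change -0.42, SE 0.06, adjusted p = 0.00439), and passed without each library in turn. Its counts were not whole in any library. The TPM of Pabpc1 was 2.88 ± 0.105 times that of Eif4g1 in siID4 and 3.435 ± 0.0888 times in NT cells, without overlap. Paip2b, which inhibits poly(A)-binding protein, fell as well (-0.36, SE 0.06, adjusted p = 0.00939, and 0.0614 without siID4 replicate 2), while its relative Paip2 was at 0.17 (adjusted p = 0.0694).

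Of 8 genes for termination, recycling and rescue, Etf1, the release factor that reads stop codons, and Denr, which recycles the small subunit, fell by 0.19 and 0.16 on the log2 scale (adjusted p = 0.0492 and 0.0482), and 0 rose. Neither passed in any fit without a library. With the block, 4 were lower and Mcts1 was higher, and the list's median was -0.09.

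Of 16 genes of mTORC1 and its translation targets, only Tsc2, which restrains mTORC1, passed in edgeR (log2 fold change 0.18, SE 0.05, adjusted p = 0.0383), at 100.2 CPM in siID4 and 88.1 CPM in NT cells. It did not pass in any fit without a library. The median was 0.07, and with the block 7 were higher and 3 lower. Of 13 eIF2 kinase and stress response genes, 1 rose and 2 fell (5 higher and 4 lower with the block). Sesn2, a stress-induced inhibitor of mTORC1, rose by 0.52 (adjusted p = 0.0177), and Eif2ak3, the kinase PERK, and Asns, asparagine synthetase, fell by 0.34 and 0.26 (0.0167 and 0.0101). Asns lost the call without siID4 replicate 2 (0.0663), and Sesn2 without NT replicate 2 or 3 (0.0830 and 0.0507). Eif2ak3 lost it without siID4 replicate 1 or 2 or NT replicate 2 (0.0517, 0.0626 and 0.0770).

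None of the 9 genes for hypusine and diphthamide synthesis, of the 10 rows for mitochondrial translation factors or of the 6 selenoprotein genes passed in edgeR. The hypusine and diphthamide genes had a median of -0.07 and, with the block, 0 higher and 1 lower (Dph5). The mitochondrial rows had a median of 0.01, with 1 higher (Gfm2) and 0 lower under the block. The selenoprotein genes had a median of 0.09, with Secisbp2 higher and Secisbp2l and Sephs2 lower under the block.

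Many genes of the machinery carry a terminal oligopyrimidine (TOP) tract at the start of their mRNA, through which growth signals control their translation. The 9 known TOP mRNAs among the members gave 0 calls in edgeR (3 lower with the block) and a median of -0.06. Of 6 other TOP mRNAs that do not encode ribosomal proteins, 3 fell and 0 rose in edgeR (6 lower with the block), with a median of -0.17. The genes of both lists averaged 100 CPM or more. At that level 10.9% of all genes were called lower in edgeR and 37.5% with the block. Those that fell in edgeR were Pabpc1, Vim, which encodes vimentin (log2 fold change -0.39, adjusted p = 0.0253), and Hnrnpa1 (-0.18, 0.0456). Vim lost the call without siID4 replicate 1 or 2 (adjusted p = 0.0792 and 0.114), and Hnrnpa1 passed in none of those fits.

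**Figure D5:**
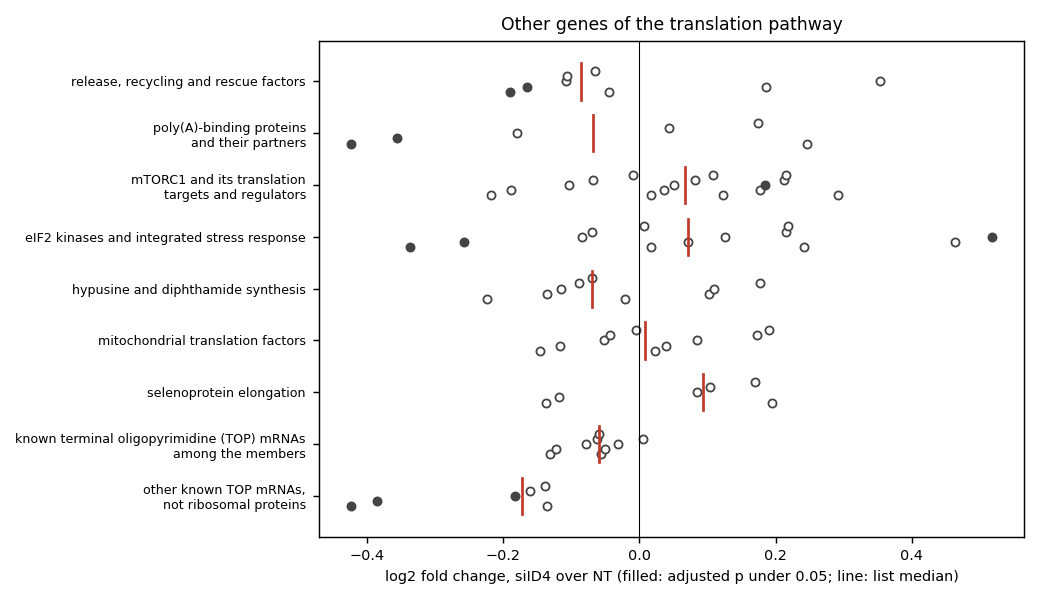
Log2 fold change of siID4 over NT for each tested gene of 9 lists of the translation pathway, filled where the adjusted p was under 0.05, with a line at each list's median. Pabpc1 at -0.42 and Sesn2 at 0.52 are the outermost called genes, and the list medians lie between -0.17 and 0.09.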

How the data were processed

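RNA was sequenced from poly(A)-selected, strand-marked libraries of 3 siID4 and 3 NT samples, per the labels' protocols. The authors deposited expected counts per gene with a gene length, and the tools RSEM, STAR and cutadapt and the build mm10 come from the submitters' processing notes. Not given in the sources used here were versions, annotation release, strand setting and the filter behind the table. Expected counts share reads between similar loci by estimate (10.0% to 10.6% of values were not whole) and were rounded for testing.

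Members were read from a fit over the whole table with edgeR 4.0.16 (quasi-likelihood, robust, TMM, filterByExpr, group as the only term, R 4.3.3), which tested 13941 of 25655 genes. Adjusted p is Benjamini-Hochberg over all genes tested, the threshold was 0.05, and p-values printed without a tool are from this fit. SE was derived from the F statistic. CPM is TMM-scaled. TPM was computed from the counts and lengths without TMM and serves for levels and ratios only. Alternatives were other scalings and filters, DESeq2 1.42.0, limma-voom (limma 3.58.1), a replicate block and leaving out each library. The edgeR step was run on simulated counts, with changes larger than those of any member but Btf3 and with libraries drawn independently. It therefore says nothing about smaller differences or paired libraries.

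Deviations of same-numbered libraries from the means of their arms correlated across genes in each of the 3 pairs (0.42, 0.14 and 0.38). The replicate block treats same-numbered libraries as pairs, while the main fit, the other alternatives and the permutation test do not. The labels do not say what pairs share. Library pairs of an arm differed beyond sampling noise (chi-square per gene 4.81 to 12.8).

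Named are Id4, called members, the 10 members with the smallest p, in each role group the 2 highest in TPM and the largest log2 fold change, up to 4 genes per pathway list and the epithelial markers. Other members are given for completeness. Members, lists and the rule were chosen with earlier results of these data known, and the ratios, the sums of copies, the stratum of at least 100 CPM and the motif counts were chosen after values were seen. Coordinates are from GENCODE M21 (GRCm38, also called mm10), promoter sequences from RefSeq on GRCm38.p6, which matched 49 of the 68 members.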

Additional observations from a re-analysis of the deposited data

How the results depend on the processing

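The fall of Btf3 kept its direction and its call under all 14 alternatives. Members called lower (2) numbered 1 with library totals, 4 with no filter on low counts, 28 with the replicate block, 7 with DESeq2 and 1 to 3 when each library was left out (1 without siID4 replicate 1 or 2 or NT replicate 3). Members called higher (0) numbered 3 with the block and 0 under the other 13 alternatives. The median over members ran from -0.10 to -0.06 when each library was left out. Under every alternative it moved by less than the typical SD of a single member between replicates. That is a wide margin for a median over 60 genes. Over all genes, 2493 were higher and 2545 lower with the block, and 221 to 686 were higher and 224 to 665 lower when each library was left out, fewest without siID4 replicate 2 and then without NT replicate 2 (291 and 340). Of the 73 pathway genes tested that are not members, 2 were called higher (16 with the block, 0 to 2 without a library) and 8 lower (22 with the block, 5 with library totals, 1 to 5 without a library). With library totals the log2 fold change changed sign in 4 of the 60 members tested, Eif2b2 (0.0082), Eef2kmt (0.0054), Eif4a2 (0.0131) and Eif5b (0.0167). When each library was left out it changed sign at least once in 11 members (Eef2, Eef2kmt, Eif1ad, Eif1b, Eif2b2, Eif2b4, Eif3c, Eif3f, Eif4a2, Eif4ebp2 and Eif5b) and in the marker Krt18. It then ran from -0.0395 to 0.0081 for Eif2b2, from -0.0555 to 0.0118 for Eef2, from -0.0789 to 0.0268 for Eef2kmt and from -0.3217 to 0.0596 for Krt18. None of these 11 members was called with or without the block, and Krt18 was called with it. The causes were not tested. The fits without a library also had fewer samples. With 3 libraries per arm, the SE of the log2 fold change ran from 0.04 to 0.14 over the members tested, and the median absolute log2 fold change was 0.09.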
